A study of Mus musculus with 8 samples.

Results

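Integrins and the other adhesion receptors of leukocytes were examined in bone marrow derived macrophages (BMDMs) with and without Mkl1. The genes were rows of the deposited raw count tables whose symbol was on a list of 38 adhesion genes, and a gene was kept when it had at least 80 counts summed over the 8 libraries. All 38 were found among the 53735 genes of the tables (Jaml under its older symbol Amica1), 33 were kept, and these 33 were all among the 14418 genes that passed the filter on low counts and were tested. The 5 genes below the limit were Itgad with 17 counts over the 8 libraries, Itga2 with 24, Jaml with 24, Itgae with 29 and Itga7 with 61, and no comparison was made for them.

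Every mouse lacked Apoe, was described by the study as a male of 6 months on the C57BL/6J background, and had received angiotensin II (Ang II) from an osmotic minipump for 7 days. The labels give the dose as 1.44 mg/kg/day, beside a rate per minute that does not match it. WT stands for Mkl1+/+, Apoe-/- and KO for Mkl1-/-, Apoe-/-. The study describes the latter as a global knockout, so that no cell type of the KO mouse should carry an intact Mkl1. WT mice came from the same litters or from sibling matings. Bone marrow was then cultured for 7 days to give macrophages, and RNA was sequenced in 2 experiments. Experiment 1 held the libraries WT 1, WT 2, KO 5 and KO 6, and experiment 2 held WT 3, WT 4, KO 7 and KO 8. The labels do not say whether each library came from its own mouse, so p-values measure the spread between these libraries, which may be technical.

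An integrin is a pair of one alpha and one beta chain that spans the membrane. Outside the cell it binds matrix proteins or receptors of other cells, and inside it is coupled to actin through talin, kindlin and vinculin. The beta2 integrins are restricted to leukocytes, beta1 integrins mostly bind matrix, and the alphav integrins bind ligands with an arginine-glycine-aspartate motif. Macrophages use them to crawl, to leave vessels and to engulf particles. Their ligands on vessel walls belong mainly to the immunoglobulin superfamily, such as ICAM-1 and VCAM-1, and tetraspanins arrange integrins in the membrane. MKL1, also called MRTF-A, is a cofactor of serum response factor (SRF), which binds a DNA element named the CArG box and drives many genes of actin and adhesion.

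The libraries held between 33977799 and 41584540 counts, of which the 33 adhesion genes took 0.547% to 0.737%. Mkl1 itself was at 25.6, 27.1, 26.8 and 29.6 CPM (counts scaled to a common library size, so that levels can be compared between libraries) in WT 1 to WT 4 and at 19.5, 20.9, 14.6 and 10.4 CPM in KO 5 to KO 8. Each KO library was below each WT library (two-sided exact permutation test over 8 libraries, p = 0.0286, the smallest this test can give). The test exchanges libraries across the 2 experiments and so takes no account of the experiment. Mkl1 counts remained in every KO library, and a gene total does not show which part of the gene was deleted. Macrophage markers were abundant in all 8 libraries, with 16000 to 36500 CPM summed over 10 genes. The summed level of 10 fibroblast and stromal markers was 247 and 322 CPM in KO 5 and KO 6 against 2.90 to 15.4 CPM in the other 6 libraries, and all 8 of those markers that were tested were higher in KO in experiment 1. In WT 3 and WT 4, endothelial markers summed to 181 and 76.8 CPM against 21.3 to 38.1 CPM elsewhere, mostly from Kdr. Flt1 and the defining marker Cdh5, but not Emcn, were also highest there, Cdh5 at 1.10 and 0.834 CPM against 0.171 to 0.757 CPM elsewhere. Platelet markers summed to 73.4 and 96.7 CPM in the same libraries against 12.0 to 40.1 CPM elsewhere, mostly from Pf4, while the platelet integrin chain Itga2b was lowest there, at 0.137 and 0.230 CPM, and Treml1 was at 0.932 and 1.27 CPM against 1.23 to 2.46 CPM elsewhere. Neutrophil markers summed to at most 1.52 CPM, lymphocyte markers to at most 2.92 CPM (Cd3e at 0 in every library) and dendritic cell markers to at most 5.40 CPM. Mast cell and basophil markers summed to 1.35 and 1.32 CPM in KO 5 and KO 6 and to at most 0.0976 CPM elsewhere. Mcpt8 made up most of this, with 43 and 51 counts in KO 5 and KO 6 and 0 in every other library. The part of these cells in the results was not tested, and in bulk RNA fewer cells of a type and less RNA per cell cannot be told apart.

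KO was compared with WT within each experiment, since the study's tables treat them separately, then over both experiments with the experiment as a term, and last as the difference between the effects of the 2 experiments. Levels are CPM scaled by TMM, changes are log2 fold changes ± SE of KO against WT, and a gene was called at a Benjamini-Hochberg adjusted p under 0.05 in edgeR's quasi-likelihood test over all 14418 genes. In experiment 1, 24 of the 33 adhesion genes were called (72.7%), 13 lower and 11 higher in KO, where 55.1% of all tested genes were called, 28.1% lower and 27.0% higher. In experiment 2, 14 were called (42.4%), 8 lower and 6 higher, against 15.8% of all genes, 8.29% lower and 7.52% higher. The median size of the change was 0.56 on the log2 scale in experiment 1 and 0.77 in experiment 2, against 0.39 and 0.34 over all genes. The signed medians were near 0 in experiment 1, at -0.06 for the adhesion genes and 0.01 for all genes, and were -0.30 and 0.01 in experiment 2.

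Adhesion genes differed between the experiments in how they responded to the genotype. The effect of the genotype differed for 22 of the 33 genes (66.7%), against 41.6% of all tested genes. Only 5 genes were called in the same direction in both experiments (15.2%, against 4.38% of all genes): Itga5, Icam1 and Cd44 were lower and Itgb5 and Itga6 higher in KO. Another 7 were called in opposite directions (21.2%, against 6.34%), namely Itgam, Itgax, Itga4, Itga9, Vcam1, Cd9 and Cd151. Over both experiments 4 genes passed (12.1%, against 7.12% of all genes), Itga5, Cd44 and Ninj1 as lower, where 3.41% of all genes were called lower, and Itgb5 as higher, where 3.72% were.

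**Figure D1:**
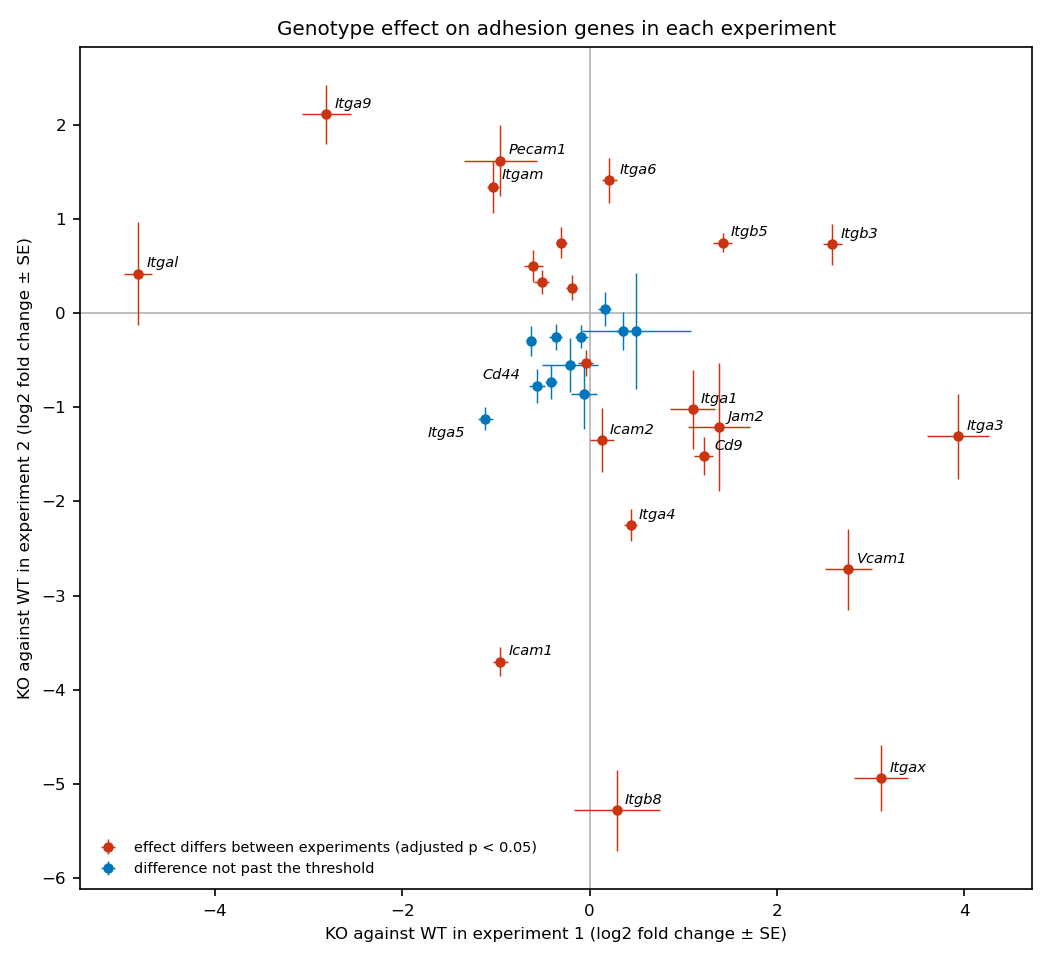
Log2 fold change of KO against WT in experiment 1 (horizontal) and experiment 2 (vertical) for the 33 adhesion genes, with bars of 1 SE; red points are the 22 genes whose effect differed between the experiments. Itga5 lies near equal values on both axes, at -1.11 and -1.12, while Itgax lies at 3.11 and -4.94.

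The promoters of 4 genes are shown first. Itga5 and Itgb5 were called in both experiments and over both, as was Cd44, which is not shown. Icam1 and Itgax had some of the largest changes. The sequences were read from the RefSeq promoter table on GRCm38.p6, the patch release of the build that the submitters' processing notes name. Each sequence covers the 250 bases before the RefSeq start of the gene, 5′ to 3′ on the gene's strand, with capitals at any match to a motif named in the next paragraph. The windows were chr9:21015690-21015939 (plus strand) for Icam1, chr15:103366792-103367041 (minus strand) for Itga5, chr16:33829415-33829664 (plus strand) for Itgb5 and chr7:128129300-128129549 (plus strand) for Itgax.
Icam1: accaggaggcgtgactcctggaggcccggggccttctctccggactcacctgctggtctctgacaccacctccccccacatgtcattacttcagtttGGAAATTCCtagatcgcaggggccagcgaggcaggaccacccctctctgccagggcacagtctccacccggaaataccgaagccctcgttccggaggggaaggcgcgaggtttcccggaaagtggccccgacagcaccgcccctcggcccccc
Itga5: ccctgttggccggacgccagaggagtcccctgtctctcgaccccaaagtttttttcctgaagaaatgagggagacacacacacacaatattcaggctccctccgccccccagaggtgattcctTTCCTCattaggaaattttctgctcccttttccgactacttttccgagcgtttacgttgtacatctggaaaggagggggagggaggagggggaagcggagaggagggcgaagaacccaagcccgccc
Itgb5: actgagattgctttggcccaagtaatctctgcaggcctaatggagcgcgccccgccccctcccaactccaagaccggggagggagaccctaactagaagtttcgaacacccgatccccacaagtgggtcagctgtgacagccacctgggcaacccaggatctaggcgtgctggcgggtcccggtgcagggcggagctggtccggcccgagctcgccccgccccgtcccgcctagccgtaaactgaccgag
Itgax: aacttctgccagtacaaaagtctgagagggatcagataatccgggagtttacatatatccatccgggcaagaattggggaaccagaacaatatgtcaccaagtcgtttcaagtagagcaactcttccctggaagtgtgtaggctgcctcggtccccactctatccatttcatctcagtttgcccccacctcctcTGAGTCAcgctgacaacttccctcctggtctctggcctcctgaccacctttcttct

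The 300-base windows of the table, from 250 bases before to 50 after each start, were searched on both strands, and 24 of the 33 genes had 28 windows there. None of the 28 held the CArG box bound by SRF, which 1.63% of all 32851 windows hold. None held the ten-letter NF-κB consensus, found in 4.51% of all windows, but the Icam1 promoter held GGAAATTCC, a run from 153 to 145 bases before the start that 0.317% of all windows contain. Itga5 carried GAGGAA, the core recognised by the macrophage factor PU.1, on the minus strand from 127 to 122 bases before its start. Motifs this short occur often, and GAGGAA was in 9 of the 28 windows against 28.3% of all. Itgax had TGANTCA, the AP-1 site, from 56 to 50 bases before its start, as did the windows of F11r, Itga9 and Itga3 at other places, against 7.81% of all windows. TATAAA was in the windows of Cd81 and Icam1 only (13.6% of all windows). It lay after the start in both, from 6 to 11 bases in Cd81 and from 13 to 18 bases in Icam1. No motif of the search lay in the Itgb5 window, and none of these matches overlapped another motif. A match is a run of letters and not a measured binding site.

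The beta2 integrins all share the chain Itgb2 (CD18), and the effect of the genotype differed between the experiments for each of the 4 genes tested. Itgam and Itgax were called in both experiments, in opposite directions, while Itgb2 and Itgal were called in experiment 1 only. Itgb2 was the most abundant adhesion gene per kilobase of exon, with a mean level of 263 CPM per kb. Its level was 955 and 876 CPM in WT 1 and WT 2 and 621 and 675 CPM in KO 5 and KO 6, with no overlap. In experiment 2 it was 726 and 728 CPM in WT 3 and WT 4 and 908 and 924 CPM in KO 7 and KO 8. The change was -0.51 ± 0.08 in experiment 1 (adjusted p = 0.000713) and 0.33 ± 0.13 in experiment 2 (adjusted p = 0.151). Experiment 2 passed in DESeq2 (0.33, adjusted p = 0.0459) and in an edgeR fit of the 4 groups (0.33, adjusted p = 0.0307). The difference of 0.83 ± 0.13 between the experiments was called (adjusted p = 0.00282).

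Itgam, the alpha chain CD11b of the complement receptor Mac-1 and a usual macrophage marker, was at 358 and 343 CPM in WT 1 and WT 2 and at 172 and 174 CPM in KO 5 and KO 6. In experiment 2 the order turned, with 157 and 114 CPM in WT 3 and WT 4 and 418 and 268 CPM in KO 7 and KO 8. The change was -1.03 ± 0.06 in experiment 1 (adjusted p = 6.39e-06) and 1.34 ± 0.28 in experiment 2 (adjusted p = 0.0371). The second call was lost when any one library of experiment 2 was left out, with changes of 0.98 to 1.62 and adjusted p of 0.0663 to 0.108. Itgal, the alpha chain CD11a of LFA-1, which binds ICAM-1, showed the largest fall of any adhesion gene in experiment 1. It was at 154 and 167 CPM in WT 1 and WT 2 and at 4.73 and 6.62 CPM in KO 5 and KO 6, a change of -4.82 ± 0.15 (adjusted p = 7.87e-06). In experiment 2 the libraries overlapped, with 102 and 51.8 CPM in WT 3 and WT 4 and 56.8 and 149 CPM in KO 7 and KO 8 (0.42 ± 0.55, adjusted p = 0.630). The KO libraries of experiment 1 were thus the only ones with little Itgal.

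Itgax, the alpha chain CD11c that is common on dendritic cells and tissue macrophages, was called in opposite directions in the experiments. Its level was 3.25 and 2.29 CPM in WT 1 and WT 2, 19.2 and 29.3 CPM in KO 5 and KO 6, 30.9 and 46.7 CPM in WT 3 and WT 4, and 1.59 and 0.935 CPM in KO 7 and KO 8. The groups did not overlap within either experiment, and the change was 3.11 ± 0.29 (adjusted p = 0.000712) and then -4.94 ± 0.35 (adjusted p = 0.00565). The difference of -8.07 ± 0.50 was the largest of the 33 genes. Of the 7 dendritic cell markers, Batf3 was lowest where Itgax was high, at 0.893 and 0.70 CPM in KO 5 and KO 6 and 0.164 and 0.575 CPM in WT 3 and WT 4 against 1.68 to 4.49 CPM in the other 4 libraries. Zbtb46 was at 0.658 and 0.604 CPM in WT 3 and WT 4 and between 0.342 and 0.600 CPM elsewhere, and Clec9a was also highest in WT 3 and WT 4, at 0.192 and 0.201 CPM. Only Batf3 and Zbtb46 had enough counts to be tested, and the part of dendritic cells in the level of Itgax was not tested. Another macrophage marker, Adgre1 (F4/80), was at 8330 and 7100 CPM in WT 1 and WT 2, 1930 and 1670 CPM in KO 5 and KO 6, 2680 and 2720 CPM in WT 3 and WT 4 and 4870 and 5260 CPM in KO 7 and KO 8. Csf1r, the receptor of the growth factor M-CSF, ran the other way, from 1560 and 1230 CPM in WT 1 and WT 2 to 2540 and 2440 CPM in KO 5 and KO 6, and from 2450 and 2220 CPM in WT 3 and WT 4 to 1180 and 751 CPM in KO 7 and KO 8. Their relation to the beta2 integrins was not tested.

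**Figure D2:**
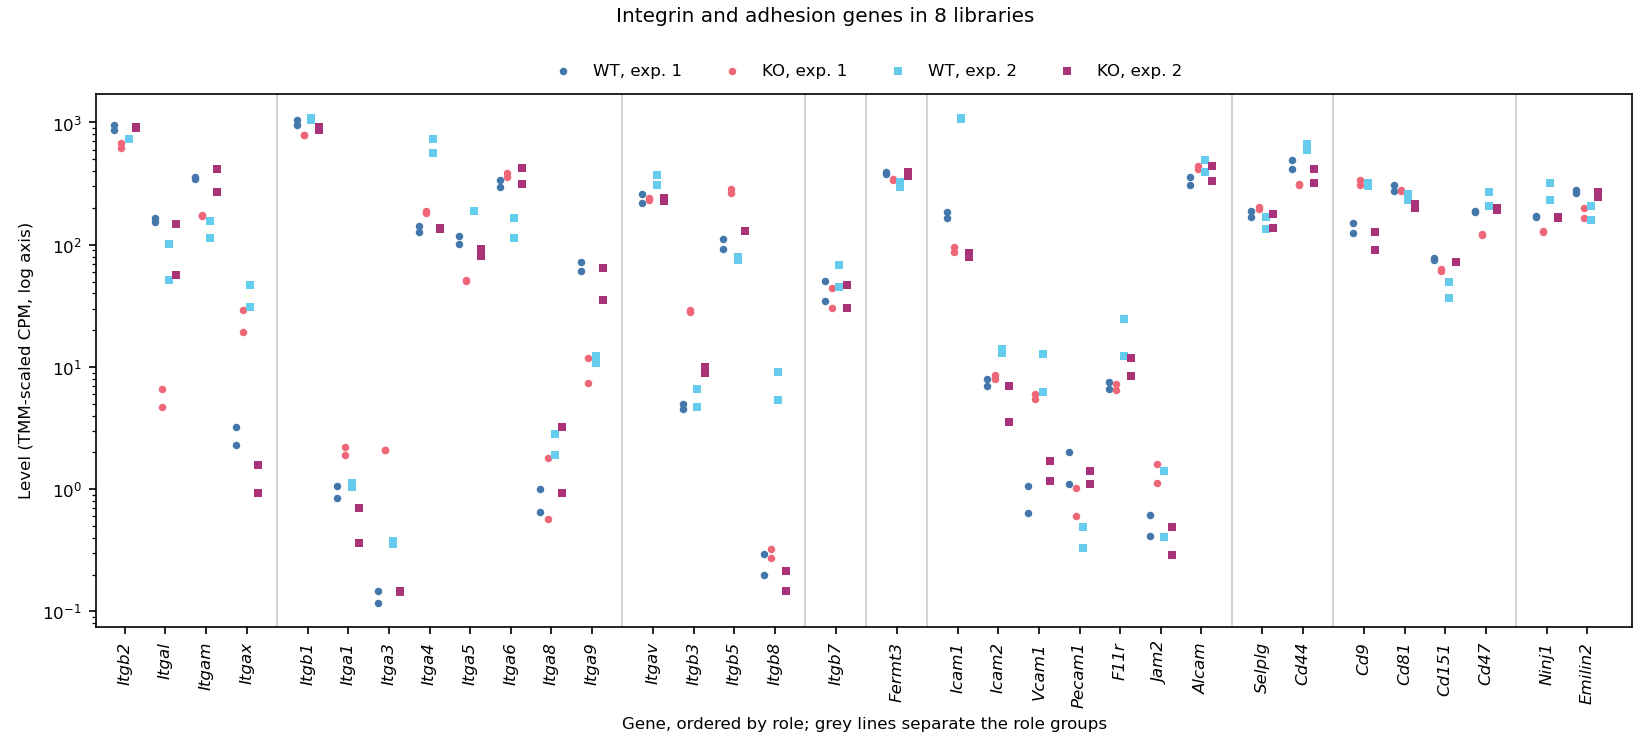
Levels of the 33 adhesion genes (TMM-scaled CPM, log axis) in each library, with genes ordered by role and 1 point per library; circles are experiment 1 and squares experiment 2. Itgb2 and Itgb1 stand near the top in every library, and Itgb8, Itgax and Itgal have the widest ranges, 61.6-fold, 49.9-fold and 35.3-fold from the lowest to the highest library.

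Among the beta1 integrins, Itga5 was the adhesion gene with the most even response. Itga5 forms the classical fibronectin receptor with Itgb1. It was at 117 and 101 CPM in WT 1 and WT 2, 50.6 and 51.9 CPM in KO 5 and KO 6, 188 and 189 CPM in WT 3 and WT 4, and 93.0 and 80.5 CPM in KO 7 and KO 8. Every KO library was below every WT library, and levels in experiment 2 were above those of the same genotype in experiment 1. The change was -1.11 ± 0.08 in experiment 1 (adjusted p = 1.81e-05), -1.12 ± 0.12 in experiment 2 (adjusted p = 0.0105) and -1.11 ± 0.08 over both (adjusted p = 0.00136). The difference between the experiments was -0.02 ± 0.14 (adjusted p = 0.914). Leaving out any of the 8 libraries kept the call over both experiments, but without KO 8 the change in experiment 2 was -1.02 with an adjusted p of 0.0611.

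The common partner Itgb1 was the second most abundant per kilobase, with a mean of 230 CPM per kb. It was at 1050 and 952 CPM in WT 1 and WT 2, 788 and 785 CPM in KO 5 and KO 6, 1090 and 1050 CPM in WT 3 and WT 4 and 925 and 872 CPM in KO 7 and KO 8. Every KO library was again below every WT library, by a small margin. The change was -0.36 ± 0.07 in experiment 1 (adjusted p = 0.00344). In the main edgeR fits it did not pass in experiment 2 (-0.25 ± 0.14, adjusted p = 0.267) or over both (-0.30 ± 0.09, adjusted p = 0.0939). Over both experiments it passed in DESeq2 (-0.31, adjusted p = 0.000175) and as the mean effect in an edgeR fit of the 4 groups (-0.30, adjusted p = 0.0139).

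Itga4, the alpha chain of VLA-4, which binds VCAM-1 and fibronectin, was high in one group only. It stood at 727 and 561 CPM in WT 3 and WT 4, against 143 and 127 CPM in WT 1 and WT 2, 187 and 181 CPM in KO 5 and KO 6 and 137 and 134 CPM in KO 7 and KO 8. The change was 0.44 ± 0.07 in experiment 1 (adjusted p = 0.00111) and -2.25 ± 0.17 in experiment 2 (adjusted p = 0.00558, and 0.0537 without KO 8). Cerkl shares 1124 bases with Itga4 on the other strand in GENCODE M21, and its counts amounted to 0.880% of those of Itga4. Itga9, which also pairs with Itgb1 and binds tenascin and VCAM-1, had 61.0 and 72.2 CPM in WT 1 and WT 2, 11.8 and 7.35 CPM in KO 5 and KO 6, 10.8 and 12.2 CPM in WT 3 and WT 4, and 35.2 and 64.2 CPM in KO 7 and KO 8. It fell in KO in experiment 1 (-2.81 ± 0.26, adjusted p = 0.00221) and rose in experiment 2 (2.11 ± 0.31, adjusted p = 0.0201), a call lost without WT 3 (2.02, adjusted p = 0.105) or WT 4 (2.20, adjusted p = 0.0780).

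Itga6, a laminin receptor chain, was at 298 and 336 CPM in WT 1 and WT 2 and 384 and 355 CPM in KO 5 and KO 6. In experiment 2 it was at 114 and 164 CPM in WT 3 and WT 4 and at 315 and 424 CPM in KO 7 and KO 8. It was higher in KO in both, by 0.21 ± 0.08 (adjusted p = 0.0485) and 1.41 ± 0.24 (adjusted p = 0.0242), although WT 2 exceeded KO 7. The call in experiment 1 was lost without WT 1 (0.13, adjusted p = 0.246) or KO 5 (0.15, adjusted p = 0.217). That in experiment 2 was lost without WT 3 (1.17, adjusted p = 0.0603), KO 7 (1.61, adjusted p = 0.0548) or KO 8 (1.18, adjusted p = 0.104).

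Itga3 and Itga1, which pair with Itgb1 as receptors of laminin and collagen, were scarce. Itga3 was at 0.148 and 0.117 CPM in WT 1 and WT 2, 2.11 and 2.10 CPM in KO 5 and KO 6, 0.356 and 0.374 CPM in WT 3 and WT 4 and 0.146 and 0.144 CPM in KO 7 and KO 8, and the change in experiment 1 was 3.93 ± 0.33 (adjusted p = 3.33e-05). Itga1 was at 1.06 and 0.851 CPM in WT 1 and WT 2, 1.92 and 2.22 CPM in KO 5 and KO 6, 1.04 and 1.12 CPM in WT 3 and WT 4 and 0.708 and 0.360 CPM in KO 7 and KO 8. Its rise of 1.10 ± 0.24 in experiment 1 passed (adjusted p = 0.00538), and experiment 2 gave -1.02 ± 0.42 (adjusted p = 0.160). These are the 2 KO libraries with 247 and 322 CPM of stromal markers, among them Col6a1 at 69.4 and 87.4 CPM, and the part of stromal RNA in the rise of Itga3 and Itga1 was not tested. Itga8 ranged from 0.568 to 3.24 CPM with no call in any comparison of all libraries, though it passed in experiment 1 without KO 5 (1.09, adjusted p = 0.0288).

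The alphav integrins held the one gene that was higher in KO over both experiments. Itgb5, which pairs with Itgav and binds vitronectin and apoptotic cells coated with Mfge8, was at 92.8 and 112 CPM in WT 1 and WT 2 and 286 and 267 CPM in KO 5 and KO 6. In experiment 2 it was at 79.2 and 74.6 CPM in WT 3 and WT 4 and 130 and 129 CPM in KO 7 and KO 8. All KO libraries lay above all WT libraries. The change was 1.42 ± 0.10 (adjusted p = 3.86e-05) in experiment 1, 0.75 ± 0.10 (adjusted p = 0.0160) in experiment 2 and 1.09 ± 0.16 (adjusted p = 0.0118) over both, and its size differed between the experiments by -0.68 ± 0.15 (adjusted p = 0.00899). Over both experiments the adjusted p rose to 0.0503 without WT 2, with a change of 1.07. In experiment 2 it rose to between 0.0521 and 0.0725 when any one of its 4 libraries was left out, with changes of 0.71 to 0.79. A fit without KO 5 and KO 6, in which the stromal markers were high, takes the effect from experiment 2 alone and gave the same change of 0.75.

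Itgb3, the beta chain of the vitronectin receptor that is typical of platelets and osteoclasts, followed Itgb5 at a lower level. It was at 4.94 and 4.49 CPM in WT 1 and WT 2, 29.2 and 28.3 CPM in KO 5 and KO 6, 4.71 and 6.61 CPM in WT 3 and WT 4 and 9.95 and 8.85 CPM in KO 7 and KO 8. All 4 KO values were above the WT values, and experiment 1 passed (2.59 ± 0.10, adjusted p = 1.33e-06). Experiment 2 gave 0.73 ± 0.22 (adjusted p = 0.0845, and 0.0460 in DESeq2) and both together 1.67 ± 0.40 (adjusted p = 0.0531) in edgeR. Over both it passed in DESeq2 (adjusted p = 0.000289), in limma-voom (adjusted p = 0.0329) and with upper-quartile scaling (adjusted p = 0.0491). The mean effect in an edgeR fit of the 4 groups also passed (1.67, adjusted p = 0.000181). In edgeR it also passed without WT 4 (1.93, adjusted p = 0.0497) and without KO 8 (1.95, adjusted p = 0.0448). Its platelet partner Itga2b stayed between 0.137 and 0.450 CPM.

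Itgav was abundant and varied least in this group. It was at 221 and 260 CPM in WT 1 and WT 2, 240 and 233 CPM in KO 5 and KO 6, 307 and 369 CPM in WT 3 and WT 4, and 240 and 226 CPM in KO 7 and KO 8. Neither experiment passed in the main edgeR fits (-0.04 ± 0.08, adjusted p = 0.723, and -0.53 ± 0.14, adjusted p = 0.0644). Experiment 2 passed in DESeq2 (-0.54, adjusted p = 0.00868). In edgeR it passed with no filter on low counts (-0.53, adjusted p = 0.0297) and in a fit of the 4 groups (-0.53, adjusted p = 0.0129). The difference between the experiments was called (-0.51 ± 0.17, adjusted p = 0.0454), and not without WT 1, WT 4, KO 5, KO 6, KO 7 or KO 8 (-0.37 to -0.53, adjusted p of 0.0654 to 0.184). Itgb8, which with Itgav releases active TGF-beta, was nearly silent outside WT 3 and WT 4, where it had 9.02 and 5.35 CPM. It was at 0.197 and 0.293 CPM in WT 1 and WT 2, 0.325 and 0.275 CPM in KO 5 and KO 6 and 0.146 and 0.216 CPM in KO 7 and KO 8, and the change in experiment 2 was -5.28 ± 0.43 (adjusted p = 0.00609, and 0.0543 without KO 8).

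**Figure D3:**
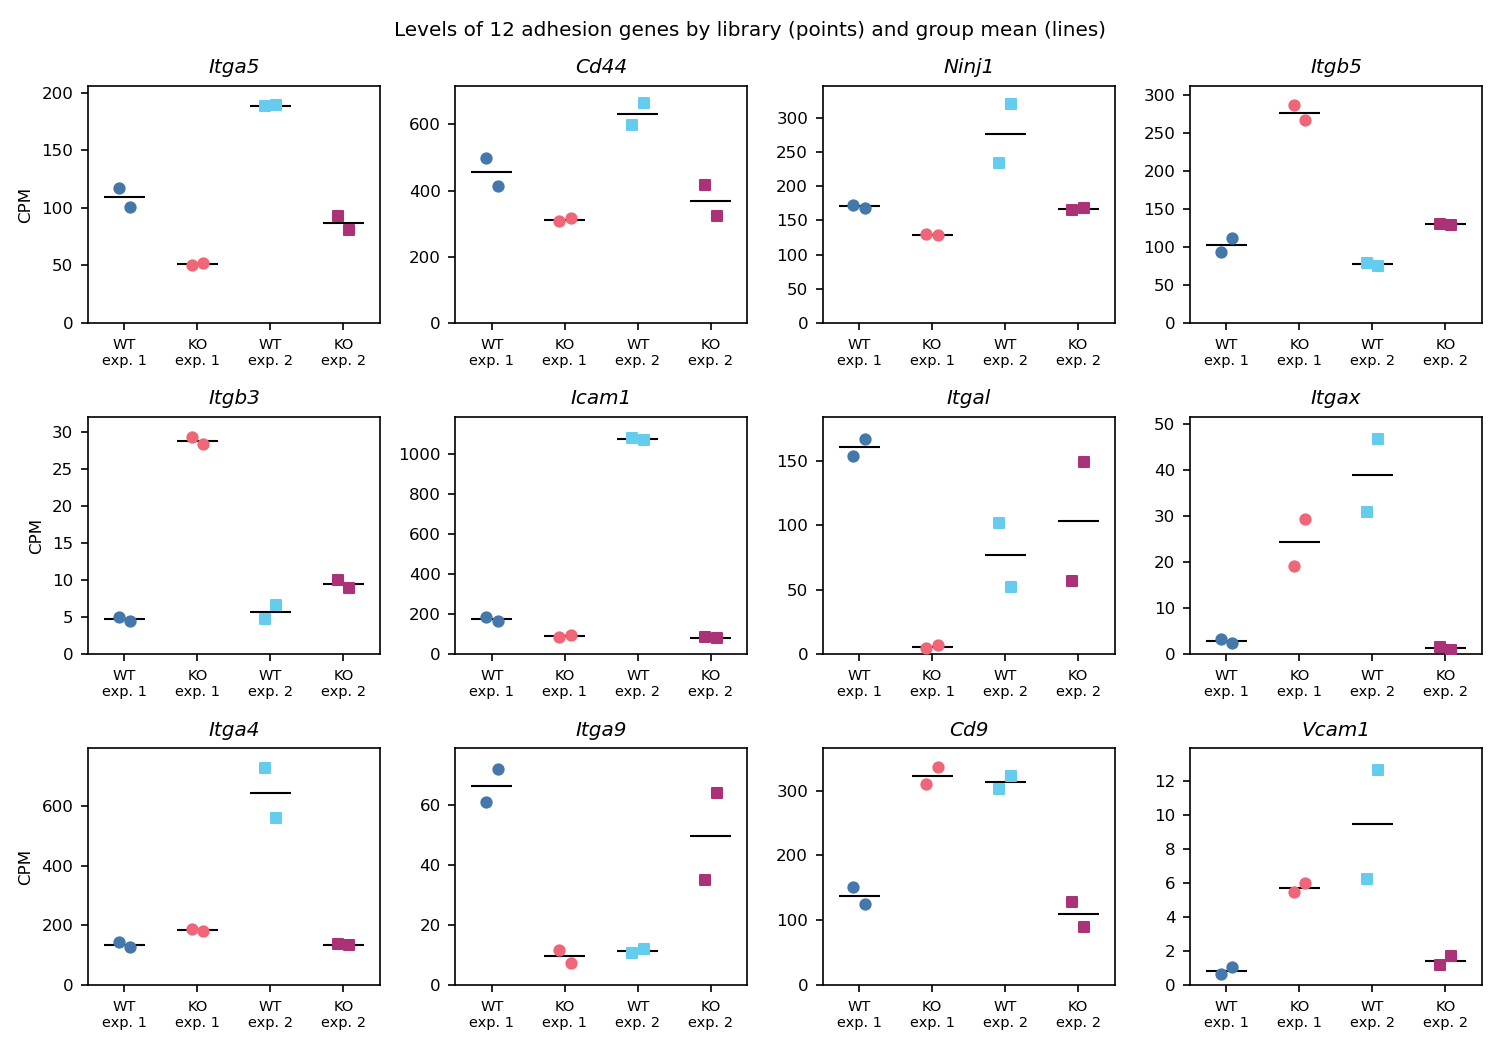
Levels of 12 adhesion genes in CPM on linear axes that start at 0, with 1 point per library and a line at the mean of each pair. Itga5 falls and Itgb5 rises from WT to KO in both experiments, Icam1 stands near 1070 CPM in the WT libraries of experiment 2 only, and Itgax, Itga9, Cd9 and Vcam1 reverse their order between the experiments.

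Itgb7, the beta chain of gut-homing integrins, did not pass in any comparison. It was at 50.5 and 34.4 CPM in WT 1 and WT 2, 30.4 and 43.9 CPM in KO 5 and KO 6, 68.0 and 45.4 CPM in WT 3 and WT 4 and 47.1 and 30.3 CPM in KO 7 and KO 8, so that replicates differed as much as genotypes. Fermt3, the kindlin of blood cells that switches integrins to their active state, was at 378 and 397 CPM in WT 1 and WT 2, 338 and 348 CPM in KO 5 and KO 6, 327 and 297 CPM in WT 3 and WT 4 and 362 and 390 CPM in KO 7 and KO 8. It had the narrowest range of the 33 genes, 1.34-fold from the lowest to the highest library. Its change of -0.19 ± 0.06 in experiment 1 passed (adjusted p = 0.0307) but not without WT 2 (-0.15, adjusted p = 0.128), without KO 5 (-0.16, adjusted p = 0.149) or without KO 6 (-0.21, adjusted p = 0.0661), nor with upper-quartile scaling (-0.09, adjusted p = 0.258).

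Icam1, the main ligand of the beta2 integrins and a gene that inflammatory signals induce, was lower in KO in both experiments by very different amounts. It was at 184 and 167 CPM in WT 1 and WT 2 and at 86.8 and 96.3 CPM in KO 5 and KO 6. In experiment 2 it was at 1080 and 1070 CPM in WT 3 and WT 4 and at 85.3 and 79.7 CPM in KO 7 and KO 8. The 4 KO libraries stayed within a narrow range, while the WT libraries of experiment 2 were far above those of experiment 1. The change was -0.95 ± 0.08 (adjusted p = 2.87e-05) and -3.70 ± 0.15 (adjusted p = 0.00322), and the difference of -2.76 ± 0.14 was called (adjusted p = 8.47e-05). Over both experiments it was -2.32 ± 0.59 and did not pass in edgeR with the experiment as a term (adjusted p = 0.0637). It passed in DESeq2 (adjusted p = 7.33e-05) and as the mean effect in an edgeR fit of the 4 groups (-2.32, adjusted p = 9.16e-06). Endothelial cells also carry ICAM-1 and ICAM-2. Of their markers, Kdr was at 173 and 68.4 CPM in WT 3 and WT 4 against 19.1 to 35.2 CPM elsewhere, and Flt1 at 6.00 and 7.30 CPM against 1.14 to 3.15 CPM. Cdh5 was low but also highest in WT 3 and WT 4, and in experiment 2 it was lower in KO (-2.06, adjusted p = 0.0356). Among the endothelial markers with too few counts to be tested, none was highest in both WT 3 and WT 4. Emcn was at 0.0548 and 0.0288 CPM there against 0.73 and 0.225 CPM in KO 5 and KO 6. Pecam1, which endothelium also carries, was lowest in WT 3 and WT 4, at 0.329 and 0.489 CPM. The part of endothelial cells in the level of Icam1 was not tested.

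Icam2, a second ligand of LFA-1, was at 7.94 and 6.98 CPM in WT 1 and WT 2, 7.98 and 8.52 CPM in KO 5 and KO 6, 12.9 and 14.1 CPM in WT 3 and WT 4 and 7.00 and 3.55 CPM in KO 7 and KO 8. Its change in experiment 2 was -1.35 ± 0.34 (adjusted p = 0.0563). It passed in DESeq2 (adjusted p = 0.0018) and limma-voom (adjusted p = 0.0409), and in edgeR without KO 7 (-1.92, adjusted p = 0.0359). Vcam1, the ligand of VLA-4, was scarce and ran with Itgax, at 0.639 and 1.06 CPM in WT 1 and WT 2, 5.49 and 6.00 CPM in KO 5 and KO 6, 6.22 and 12.7 CPM in WT 3 and WT 4 and 1.17 and 1.70 CPM in KO 7 and KO 8. It rose by 2.76 ± 0.25 in experiment 1 (adjusted p = 4.94e-05) and fell in experiment 2 (-2.72 ± 0.43, adjusted p = 0.0219). The call in experiment 2 was lost without KO 7 (-2.47, adjusted p = 0.0950) or KO 8 (-3.01, adjusted p = 0.0970). Both stromal and endothelial cells can make VCAM-1. Stromal markers were high in KO 5 and KO 6, and of the 7 endothelial markers Kdr, Flt1 and Cdh5, the 3 with enough counts to be tested, were highest in WT 3 and WT 4. Emcn was highest in KO 5 and KO 6, at 0.73 and 0.225 CPM. Their part in the level of Vcam1 was not tested.

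Pecam1 (CD31), found on endothelium, platelets and leukocytes, was low, at 1.11 and 2.02 CPM in WT 1 and WT 2, 1.03 and 0.600 CPM in KO 5 and KO 6, 0.329 and 0.489 CPM in WT 3 and WT 4 and 1.10 and 1.41 CPM in KO 7 and KO 8. It was thus lowest in the libraries with the most Kdr and Pf4. Its rise of 1.62 ± 0.38 in experiment 2 (adjusted p = 0.0456) was lost when any one of the 4 libraries was left out, with changes of 1.35 to 1.92 and adjusted p of 0.0821 to 0.184. In experiment 1 it was -0.95 ± 0.39 (adjusted p = 0.0772) and passed without WT 1 (-1.33, adjusted p = 0.0236) or KO 5 (-1.37, adjusted p = 0.0421). Jam2 was at 0.615 and 0.411 CPM in WT 1 and WT 2, 1.62 and 1.12 CPM in KO 5 and KO 6, 1.40 and 0.403 CPM in WT 3 and WT 4 and 0.488 and 0.288 CPM in KO 7 and KO 8. Its rise in experiment 1 passed (1.38 ± 0.33, adjusted p = 0.00829), and experiment 2 gave -1.21 ± 0.68 (adjusted p = 0.273). F11r, the junctional molecule JAM-A, was at 6.59 and 7.57 CPM in WT 1 and WT 2, 6.44 and 7.22 CPM in KO 5 and KO 6, 24.6 and 12.4 CPM in WT 3 and WT 4 and 8.44 and 11.9 CPM in KO 7 and KO 8, with no call in any comparison of all libraries with the filter on low counts. With no such filter its difference between the experiments passed (-0.78, adjusted p = 0.00779). Without WT 4 it passed in experiment 2 (-1.27, adjusted p = 0.0395), as did the difference (-1.22, adjusted p = 0.0173). Alcam (CD166), the most even gene of this family, was at 356 and 306 CPM in WT 1 and WT 2, 420 and 440 CPM in KO 5 and KO 6, 390 and 490 CPM in WT 3 and WT 4 and 437 and 335 CPM in KO 7 and KO 8. It rose by 0.36 ± 0.08 in experiment 1 (adjusted p = 0.00611), and in experiment 2 the change was -0.19 ± 0.20 (adjusted p = 0.542).

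Cd44, the receptor of hyaluronan, was lower in KO in both experiments. It was at 498 and 413 CPM in WT 1 and WT 2, 308 and 316 CPM in KO 5 and KO 6, 597 and 664 CPM in WT 3 and WT 4 and 416 and 322 CPM in KO 7 and KO 8. Within each experiment the groups did not overlap, and across experiments KO 7 just exceeded WT 2. The change was -0.56 ± 0.09 (adjusted p = 0.00166), -0.77 ± 0.18 (adjusted p = 0.0430) and -0.66 ± 0.12 over both (adjusted p = 0.0272). Over both experiments the change stayed between -0.60 and -0.71 when WT 1, WT 3, WT 4, KO 5, KO 6 or KO 7 was left out, but the adjusted p then lay between 0.0572 and 0.0996. In experiment 2 the adjusted p was 0.0632 to 0.152 without any one of its libraries, with changes of -0.60 to -0.97. Selplg, the ligand of P-selectin, did not pass, at 188 and 168 CPM in WT 1 and WT 2, 204 and 196 CPM in KO 5 and KO 6, 169 and 135 CPM in WT 3 and WT 4 and 177 and 137 CPM in KO 7 and KO 8. It passed in experiment 1 without WT 1 (0.24, adjusted p = 0.0346) and with upper-quartile scaling (0.26, adjusted p = 0.0126).

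Ninj1 (ninjurin 1), an adhesion protein of myeloid cells that also ruptures the membrane of dying cells, was at 173 and 168 CPM in WT 1 and WT 2, 130 and 128 CPM in KO 5 and KO 6, 233 and 320 CPM in WT 3 and WT 4 and 165 and 168 CPM in KO 7 and KO 8. The highest KO and the lowest WT library both stood at 168 CPM. The change was -0.41 ± 0.06 in experiment 1 (adjusted p = 0.000434), -0.73 ± 0.18 in experiment 2 (adjusted p = 0.0517, 0.00274 in DESeq2 and 0.0367 without WT 3) and -0.56 ± 0.13 over both (adjusted p = 0.0425). Leaving out any library other than WT 4 gave changes of -0.52 to -0.62 and moved the adjusted p over both to between 0.0531 and 0.131. Emilin2, a matrix glycoprotein, was at 281 and 264 CPM in WT 1 and WT 2, 164 and 199 CPM in KO 5 and KO 6, 208 and 159 CPM in WT 3 and WT 4 and 248 and 272 CPM in KO 7 and KO 8. It fell in experiment 1 (-0.60 ± 0.10, adjusted p = 0.00221), and in experiment 2 the value was 0.50 ± 0.17 (adjusted p = 0.105).

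Cd9, a tetraspanin that restrains fusion of macrophages, was at 151 and 125 CPM in WT 1 and WT 2, 310 and 336 CPM in KO 5 and KO 6, 303 and 322 CPM in WT 3 and WT 4 and 128 and 90.2 CPM in KO 7 and KO 8. It rose in experiment 1 (1.22 ± 0.10, adjusted p = 7.87e-05) and fell in experiment 2 (-1.52 ± 0.20, adjusted p = 0.0144, and 0.0543 without KO 8). Cd151, the tetraspanin partner of laminin-binding integrins, did the reverse, at 77.2 and 74.8 CPM in WT 1 and WT 2, 61.2 and 63.1 CPM in KO 5 and KO 6, 37.0 and 49.5 CPM in WT 3 and WT 4 and 72.4 and 72.9 CPM in KO 7 and KO 8. Its change was -0.30 ± 0.06 (adjusted p = 0.00287) and then 0.75 ± 0.16 (adjusted p = 0.0377), and the second call was lost without WT 3, KO 7 or KO 8 (0.55 to 0.75, adjusted p of 0.114 to 0.146). Cd81 did not pass in any comparison, at 306 and 275 CPM in WT 1 and WT 2, 273 and 278 CPM in KO 5 and KO 6, 234 and 259 CPM in WT 3 and WT 4 and 200 and 214 CPM in KO 7 and KO 8. Cd47, the partner of integrins that also gives the signal against phagocytosis, was at 185 and 187 CPM in WT 1 and WT 2, 121 and 123 CPM in KO 5 and KO 6, 271 and 207 CPM in WT 3 and WT 4 and 192 and 198 CPM in KO 7 and KO 8. It fell in experiment 1 (-0.62 ± 0.05, adjusted p = 4.64e-05), and over both experiments it was -0.45 ± 0.11 (adjusted p = 0.0605, and 0.0269 without WT 4).

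**Figure D4:**
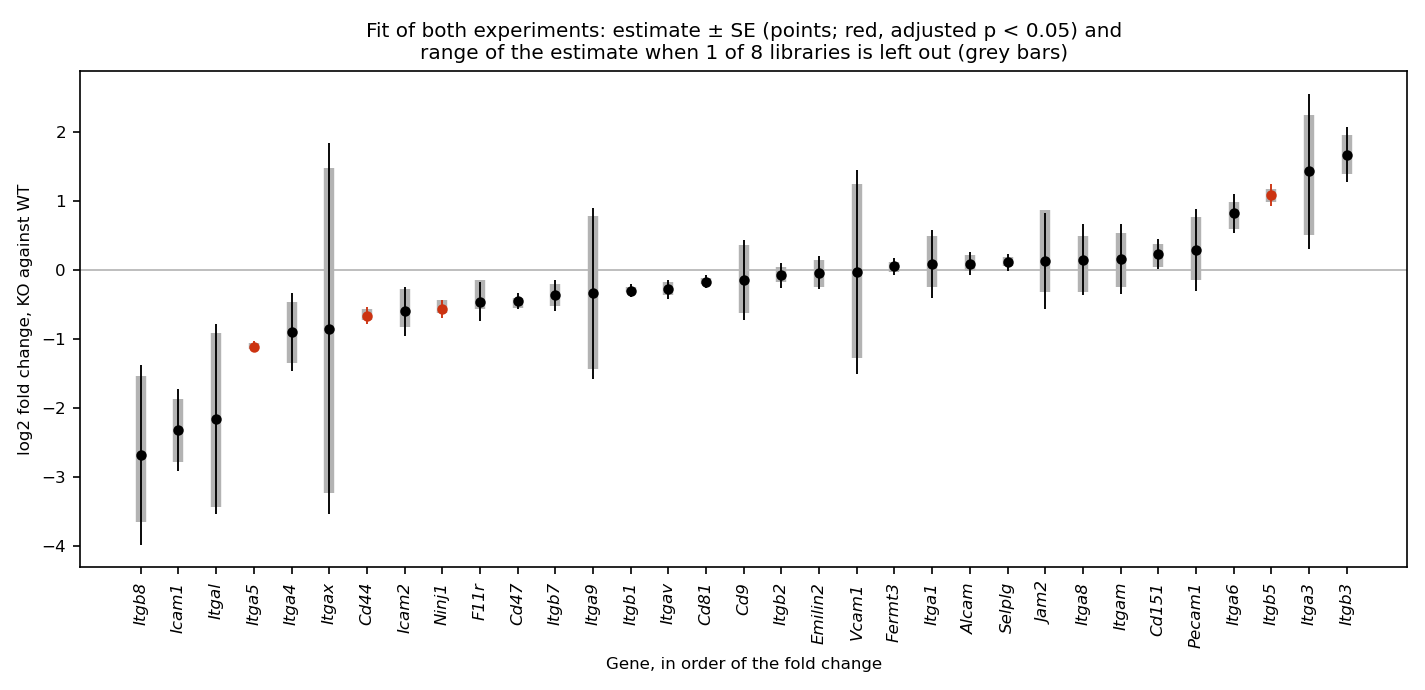
Log2 fold change of KO against WT over both experiments for the 33 adhesion genes in order, with bars of 1 SE (points), and the range of the estimate when each of the 8 libraries was left out in turn (grey bars); red points passed the threshold. Itga5 at -1.11 and Itgb5 at 1.09 have short bars, while Itgax, Vcam1 and Itga9 have bars that cross 0.

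All 4 KO libraries lay on one side of all 4 WT libraries for 5 of the 33 genes (15.2%), where 12.7% of all tested genes did so. Itgb1, Itga5 and Icam1 were lower and Itgb3 and Itgb5 higher in KO. The share of 15.2% is near the 12.7% of all genes. Such a separation fixes the exact permutation p at 0.0286, the smallest of that test, so the p adds nothing to the count. That test also exchanges libraries across the 2 experiments.

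WT of experiment 2 stood apart from the other groups more often in adhesion genes than in all genes, and KO of experiment 1 less often. Both WT libraries of experiment 2 lay above or below all the other 6 for 18 of the 33 genes (54.5%, against 36.4% of all genes), above for 12, which included Icam1, Itga4, Itgb8, Itgax and Vcam1, and below for 6, which included Itgam, Itga6 and Itgb5. Both KO libraries of experiment 1 did so for 12 genes (36.4%, against 42.7%), above for Itga1, Itga3, Itgb3, Itgb5 and Selplg and below for Itgb2, Itgal, Itgb1, Itga5, Cd44, Cd47 and Ninj1. Both WT libraries of experiment 1 did so for 3 genes (9.09%, against 14.0%), and both KO libraries of experiment 2 for 4 (12.1%, against 8.04%). Measured as the root mean square difference of log2 levels over the 33 genes, WT of experiment 1 and KO of experiment 2 were the closest pair of groups, at 0.508. The other 5 pairs, which include both pairs of the same genotype, were between 1.49 and 1.72. A change of over 2-fold separated the closest pair in 3 of the 33 genes (9.09%, against 2.74% of all tested genes) and the other pairs in 10 to 14 (30.3% to 42.4%, against 12.4% to 17.7%). Over all tested genes the same pair was also the closest, at 0.406 against 0.841 to 0.985. Every value here takes the genotypes as labelled. Mkl1 was lower in each of the 4 libraries labelled KO than in each labelled WT, and whether the labels of either experiment are right was not tested further.

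Genes around the integrins were read from fixed lists. Of 37 genes of integrin activation and the adhesion complex, 35 were tested. In experiment 1, 10 were lower and 9 higher in KO, near the 55.1% of all genes called. In experiment 2, where 15.8% of all genes were called, 2 were lower and 5 higher. Over both experiments, where 7.12% of all genes were called in edgeR, 2 were lower and none higher (9 at an unadjusted p under 0.05). DESeq2 called 5 lower and 1 higher, and its share of all genes is not given. The median change over both was 0.02, against 0.00 over all genes. Vcl, which encodes vinculin, the protein that links talin to actin, was at 126 and 99.6 CPM in WT 1 and WT 2, 53.6 and 56.6 CPM in KO 5 and KO 6, 94.0 and 77.1 CPM in WT 3 and WT 4 and 57.8 and 51.8 CPM in KO 7 and KO 8. Every KO library was below every WT library, and the change over both was -0.84 ± 0.13 (adjusted p = 0.0146). Fyb, the adaptor ADAP that couples surface receptors to integrin activation, was at 640, 587, 681 and 719 CPM in WT 1 to WT 4 and at 349, 305, 558 and 565 CPM in KO 5 to KO 8 (-0.61 ± 0.14, adjusted p = 0.0499). Lims1, which encodes PINCH1, a partner of integrin-linked kinase, was next and did not pass (-0.46 ± 0.12, adjusted p = 0.0663).

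Of 30 integrin ligands with a row, 21 were tested, and 19 of these were higher in KO in experiment 1, against 27.0% of all genes, with a median change of 3.23. In experiment 2, where edgeR called 8.29% of all genes lower and 7.52% higher, none was higher and 3 were lower (6 lower in DESeq2 and 5 in limma-voom). Over both experiments, where 7.12% of all genes were called, none passed in edgeR (4 at an unadjusted p under 0.05). DESeq2 called 3 higher and limma-voom 1. In experiment 2, 6 had an unadjusted p under 0.05. The smallest p over both were those of Lamc1 (0.58 ± 0.15, adjusted p = 0.0659), Thbs2 (2.57 ± 0.79, adjusted p = 0.101) and Fn1 (1.42 ± 0.46, adjusted p = 0.116). By level most of the list was Spp1 (osteopontin), which macrophages make, at 2010 and 2080 CPM in WT 1 and WT 2 and 9400 and 11400 CPM in KO 5 and KO 6 (2.34 in experiment 1, adjusted p = 2.84e-06). In experiment 2 its libraries overlapped, at 5220 and 3420 CPM in WT 3 and WT 4 and 5640 and 1760 CPM in KO 7 and KO 8 (-0.22 ± 0.58, adjusted p = 0.817). Col1a1 and Col1a2 are also on the list of stromal markers, which were high in KO 5 and KO 6, and the part of stromal RNA in the rise of the ligands was not tested. The next lists can be read against the same edgeR shares of all genes, 55.1% in experiment 1, 15.8% in experiment 2 and 7.12% over both. Shares for DESeq2 and limma-voom are not given. Of 14 other tetraspanins tested, 4 were lower and 5 higher in experiment 1, 1 lower and 5 higher in experiment 2, and none passed over both in edgeR or limma-voom (4 and 3 at an unadjusted p under 0.05), while DESeq2 called 1 lower and 2 higher (Tspan4, Cd63 and Cd82 had the smallest p in edgeR, with 0.36 ± 0.09, 0.28 ± 0.08 and -0.84 ± 0.30). Of 19 other leukocyte adhesion genes tested, 6 were lower and 8 higher in experiment 1, 1 lower and 4 higher in experiment 2, and none passed over both in edgeR or limma-voom (5 in each at an unadjusted p under 0.05), while DESeq2 called 2 lower and 2 higher (Nectin3, Cd84 and Pvr came first in edgeR, with 2.03 ± 0.51, 0.48 ± 0.13 and -0.59 ± 0.17). Of the integrin subunits outside the list only Itga2b and Itga10 were tested, and neither passed in any comparison in edgeR, DESeq2 or limma-voom, 0 of them at an unadjusted p under 0.05 (0.60 ± 0.31 and 0.39 ± 0.30 over both experiments).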

How the data were processed

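Bulk RNA-seq of BMDMs, with 4 WT and 4 KO libraries in 2 experiments, was used, with group, number and experiment of every library taken from the labels. The authors deposited raw counts per gene, whole numbers not normalized. Their processing notes name STAR 2.7.0f, featureCounts of Subread 1.6.4, DESeq2 1.22.1 and GRCm38. The annotation and any use of strand in counting are not given in the sources used here, so reads of overlapping antisense genes may be shared; of the genes that overlap adhesion genes in GENCODE M21, 2 (Cerkl and Trpt1) are in the tables, and the counts of Trpt1 were 0.263% of those of Fermt3. The deposited normalized counts were not used, because they were scaled within each experiment.

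KO was compared with WT with edgeR 4.0.16 in R 4.3.3 (TMM, filterByExpr by genotype over the 8 libraries, robust quasi-likelihood F test, two-sided, Benjamini-Hochberg over 14418 genes, threshold 0.05), in each experiment alone, over both with experiment as a term, and as their interaction. The SE was obtained from each change and its F value, as change over root F. CPM used TMM scaling over the 8 libraries, and levels per kb used exon lengths of GENCODE M21. Exact permutation tests of mean log2 CPM, with a prior count of 2, enumerated 70 arrangements of the libraries without regard to experiment. Replicates differed by more than counting noise in every pair, so none was a copy. Intervals of single counts are not given; the SE includes the spread between libraries.

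The genes and lists were chosen with earlier results of these data known. The text names every adhesion gene, with each library's value where it was called or among the 5 most abundant per kb of its role group, the 3 genes with the smallest p over both experiments of each other pathway list, Mkl1, and marker genes beside the results they bear on, of which Adgre1, Csf1r, Batf3, Zbtb46, Clec9a, Kdr, Flt1, Cdh5, Emcn, Pf4, Treml1, Cd3e, Mcpt8, Col6a1, Col1a1, Col1a2 and Spp1 were picked after their values were seen. Alternatives were DESeq2 1.42.0, limma-voom (limma 3.58.1), upper-quartile scaling, other filters and thresholds, a fit of 4 groups, no experiment term and each library left out. Leaving out KO 5 and KO 6 together was added after the data were seen.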

Additional observations from a re-analysis of the deposited data

Results flagged for a closer look

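Among the 4 KO libraries the Cd44 level of KO 7, 416 CPM, lay apart from the other 3 by Dixon's test. The test was run on 66 groups of 4 libraries, and chance alone flags about 1 in 20.

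The effect of the genotype differed between the experiments for 22 adhesion genes by the interaction test. The values are the log2 change in experiment 2 minus that in experiment 1. Among the beta2 integrins they were 0.83 for Itgb2, 5.24 for Itgal, 2.36 for Itgam and -8.07 for Itgax. Among Itgb1 partners they were -2.13 for Itga1, -5.26 for Itga3, -2.70 for Itga4, 1.19 for Itga6 and 4.91 for Itga9. The alphav group gave -0.51 for Itgav, -1.87 for Itgb3, -0.68 for Itgb5 and -5.58 for Itgb8, and the adaptor Fermt3 gave 0.45. In the immunoglobulin superfamily they were -2.76 for Icam1, -1.50 for Icam2, -5.49 for Vcam1, 2.55 for Pecam1 and -2.62 for Jam2. The last values were -2.75 for Cd9, 1.04 for Cd151 and 1.09 for Emilin2. Of the 22 calls, 17 held without any one of the 8 libraries, and those of Itga6, Itgav, Fermt3, Icam2 and Jam2 did not.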

How the results depend on the processing

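No paired analysis was possible because the labels number the libraries from 1 to 8 and no number is shared between WT and KO. In experiment 1 the 24 calls became 12 with a minimum change of 2-fold and 18 in the 4-group fit, which lost Itga6 (adjusted p = 0.397), Fermt3 (0.156), Jam2 (0.0843), Alcam (0.10), Cd151 (0.102) and Ninj1 (0.0535), and leaving out each library gave 23 to 25, with 22 genes called each time. In experiment 2 the 14 calls became 19 with DESeq2, 19 with no filter on low counts, 21 in the 4-group fit (which added Itgb2, Itga3, Itgav, Itgb3, Icam2, Ninj1 and Emilin2) and 4 at an adjusted p under 0.01, and leaving out each library gave 3 to 10 (8 without WT 3, 10 without WT 4, 8 without KO 7 and 3 without KO 8), with Icam1 and Itgax called each time. A fit without a library left 1 library in its arm, which is assumed to vary like the others. Over both experiments the 4 calls became 10 with DESeq2 (which added Itgb1, Itga6, Itgb3, Itgb8, Icam1 and Cd47), 1 at an adjusted p under 0.01, 2 with a minimum change of 2-fold, 16 when the mean of the effects was tested in the 4-group fit, and 0 with no experiment term in edgeR (8 at an unadjusted p under 0.05). They became 19 without KO 5 and KO 6, a fit that takes its genotype effect from experiment 2, where Itga9 (2.11) and Emilin2 (0.50) had the opposite sign to the full fit (-0.34 and -0.04). Leaving out each library gave 2 to 5 (2 without each of WT 1, WT 2, WT 3, KO 5, KO 6 and KO 7), with Itga5 called each time. The 22 differences between the experiments remained between 15 and 24 in number under all alternatives, and between 17 and 24 without 1 library. Upper-quartile scaling moved the changes of the adhesion genes in experiment 1 by a median of 0.10 (log2), after which Fermt3 lost and Selplg gained the call, leaving 12 lower and 12 higher. Over the single genes, 1601 values kept direction and side of the threshold, 131 lost and 71 gained the call, and 70 changed sign, of which Itga9 and Emilin2 without KO 5 and KO 6 passed the test and the others passed under neither setting. Upper-quartile scaling turned Itgav (0.06), F11r (0.04) and Cd81 (0.01) in experiment 1 and Vcam1 (0.04) and Emilin2 (0.03) over both. Over both experiments Vcam1 also turned in the 4-group fit (0.03) and with DESeq2 (0.00 after rounding), and Itga8 with limma-voom (-0.13). The difference for Itga5 was 0.01 with no filter on low counts. Without KO 5 and KO 6, the changes over both of Itgb2 (0.33), Itgal (0.42), Itga1 (-1.02), Itga3 (-1.31), Itga8 (-0.19), Jam2 (-1.22) and Alcam (-0.19) had the opposite sign to the full fit. Leaving out 1 library at a time moved the log2 changes in experiment 1 across 0 for Itga8 (-0.57 to 1.09), Itgav (-0.15 to 0.09), Itgb7 (-0.50 to 0.10) and F11r (-0.16 to 0.04), and in experiment 2 for Itga8 (-1.34 to 0.45), Itgal (-0.44 to 0.98) and Selplg (-0.15 to 0.22). Over both it did so for Itgb2 (-0.18 to 0.04), Itgam (-0.25 to 0.53), Itgax (-3.23 to 1.48), Itga1 (-0.25 to 0.49), Itga8 (-0.32 to 0.49), Itga9 (-1.43 to 0.78), Fermt3 (-0.03 to 0.11), Vcam1 (-1.27 to 1.25), Pecam1 (-0.14 to 0.77), Jam2 (-0.32 to 0.87), Alcam (-0.01 to 0.22), Cd9 (-0.62 to 0.36) and Emilin2 (-0.24 to 0.15), and for the differences of Itga5 (-0.10 to 0.08), Itga8 (-1.82 to 0.36) and Selplg (-0.28 to 0.08). The shares of all genes called under the alternatives are not given, so a rise or fall in these counts cannot be read as particular to adhesion genes. Pairs of libraries limit what small changes can be called.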
